A study of Mus musculus with 56 samples.

Results

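The 10 genes described here are known from the liver lobule for their pericentral expression or as targets of Wnt/β-catenin signalling. They are Glul, Oat, Axin2, Lgr5, Tbx3, Rnf43, Lect2, Cyp2e1, Cyp1a2 and Rhbg. Each was taken as the first transcript listed under its symbol in the liver RNA-seq table, which holds 23813 genes, and all 10 were found. The rule uses gene names and no measured value, but the genes were chosen with earlier results of these data known. Their share of calls beside that of all genes is therefore a description. RNA was measured in livers of 12 male mice in 3 groups of 4. Hypothyroid WT mice were fed propylthiouracil (PTU), a drug that stops the thyroid from making hormone, in chow low in iodine, and were injected with vehicle. Hyperthyroid WT mice received the same diet and injections of triiodothyronine (T3) on its last days. Hypothyroid L-NCOR1ΔID mice received PTU and carried a liver-specific NCOR1, a nuclear receptor corepressor, that lacks the domains through which it binds the thyroid hormone receptor (TR). All 3 groups were therefore on PTU, and no untreated mice were included. The mice were adults a few months old. Ages are given as averages over larger groups than the mice sequenced, in which mutant mice were younger than both WT groups, and the part of age in the mutant comparisons was not tested. What drives the liver-specific change of Ncor1 was not given in the sources used here. L-NCOR1ΔID mice were kept on a mixed strain background. The methods name a background for WT mice only as littermates of another mutant line. Whether the WT mice sequenced shared the background of the L-NCOR1ΔID mice is not stated. Strain and genotype therefore cannot be told apart in the mutant comparisons.

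Hepatocytes differ along the lobule, from the portal vein, where blood enters, to the central vein, where it leaves. Endothelial cells around the central vein secrete Wnt ligands and R-spondins, which stabilise β-catenin in the nearest hepatocytes and let TCF factors activate target genes there. Glutamine synthetase and the ammonium transporter Rhbg mark the innermost layer, whereas Cyp2e1 and Cyp1a2 extend farther outwards. The RNA was extracted from pieces of whole liver, so the position of a transcript in the lobule was not measured. In such bulk samples fewer cells of a type and less RNA per cell cannot be told apart.

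The libraries held about 21300000 to 42600000 reads, estimated from the steps between low values. The values are RPKM, reads per kilobase of transcript scaled to the depth of the library, which can be compared between genes per length. At these depths 0.1 RPKM corresponds to 2.13 to 4.26 reads per kilobase. A further data file lists 37200 regions of H3K9 or H3K27 acetylation, marks of active promoters and enhancers, merged over hypothyroid and hyperthyroid WT livers. It gives positions on mm9 and no values per mouse. The defining markers of hepatocytes were high in every library, with summed RPKM of 18200 to 47500 over the 5 of 6 hepatocyte markers found in the table. Ncor1 itself, counted over the whole transcript and not over the deleted part, had 14.7 ± 0.665 RPKM in hypothyroid WT, 16.2 ± 2.18 in hyperthyroid WT and 13 ± 0.844 in L-NCOR1ΔID livers (mean ± SD, n = 4 each), so it does not check the mutation.

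The start sites of all 10 genes lay inside an acetylated region (mm9, GENCODE annotation of the same build), as did those of 88.2% of the 11486 genes tested for T3 whose start site could be placed. The region at the start of Cyp2e1 (chr7:147928189-147958802) covered 30614 bp and was longer than 98.7% of the regions at start sites. The region at Oat (chr7:139758769-139771416) covered 12648 bp and that at Cyp1a2 (chr9:57527946-57537656) 9711 bp. At Glul (chr1:155741633-155750447) it covered 8815 bp, at Tbx3 (chr5:120118141-120127100) 8960 bp and at Rnf43 (chr11:87475147-87482770) 7624 bp. The regions at Lect2 (chr13:56647594-56653429), Lgr5 (chr10:115019922-115025288) and Axin2 (chr11:108781223-108785790) covered 5836, 5367 and 4568 bp. Rhbg (chr3:88057684-88059196) had the shortest, with 1513 bp, and only 2.94% of the regions at start sites were shorter. The median over the 10 genes was 8220 bp, against 3946 bp over all start sites inside a region. Within 100 kb of the start, Lgr5 had 1 region, while Lect2 and Cyp1a2 had 14 each, and the median was 8 for the 10 genes and 7 for all genes. The list pools both thyroid states, so it does not show whether a region changed with T3.

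TCF factors bind a core that can be written CTTTGA, read on the other strand as TCAAAG. RefSeq promoters (GRCm38.p6, 250 bases before to 50 after the start) were held for 7 of the 10 genes, and not for Lgr5, Tbx3 and Rhbg. The core was present, on either strand, in 3 of these 7, Lect2, Cyp2e1 and Cyp1a2, and in 16% of the 32851 promoters. The members are counted by gene, whatever their number of promoters, whereas the 16% is over single promoters. The shares are therefore not in the same unit. The 250 bases before the start are shown for these 3 genes, with the core in capitals, and for Axin2, a common Wnt target whose window held no match. Positions are chr13:56548539-56548788 on the minus strand, chr7:140763569-140763818 on the plus strand, chr9:57683656-57683905 on the minus strand and chr11:108920099-108920348 on the plus strand. The core began 31 bases before the start of Lect2, 135 bases before that of Cyp2e1 and 243 bases before that of Cyp1a2. A match describes the letters only and is not a measured binding site.
Lect2: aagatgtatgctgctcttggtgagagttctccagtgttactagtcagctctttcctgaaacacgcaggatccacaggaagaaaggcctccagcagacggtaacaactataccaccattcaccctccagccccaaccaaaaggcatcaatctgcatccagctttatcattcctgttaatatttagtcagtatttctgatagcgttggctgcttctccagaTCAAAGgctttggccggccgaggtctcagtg
Cyp2e1: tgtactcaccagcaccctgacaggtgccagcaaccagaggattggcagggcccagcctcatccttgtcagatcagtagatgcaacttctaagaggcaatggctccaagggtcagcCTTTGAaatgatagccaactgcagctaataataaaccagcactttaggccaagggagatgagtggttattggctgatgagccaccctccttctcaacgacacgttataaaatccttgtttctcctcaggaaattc
Cyp1a2: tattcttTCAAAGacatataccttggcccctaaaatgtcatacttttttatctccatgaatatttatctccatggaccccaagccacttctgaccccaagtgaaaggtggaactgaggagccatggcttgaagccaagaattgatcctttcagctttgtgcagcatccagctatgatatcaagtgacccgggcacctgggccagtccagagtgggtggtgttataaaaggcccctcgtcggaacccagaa
Axin2: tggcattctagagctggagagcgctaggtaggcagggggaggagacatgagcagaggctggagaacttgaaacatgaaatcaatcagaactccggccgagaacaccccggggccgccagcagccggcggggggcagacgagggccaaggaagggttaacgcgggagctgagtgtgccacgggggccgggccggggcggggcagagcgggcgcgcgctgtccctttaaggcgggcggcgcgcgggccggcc

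The first comparison asked how the genes respond to T3, in hyperthyroid against hypothyroid WT livers. With T3, 6 of the 10 genes were higher (Glul, Axin2, Lgr5, Tbx3, Lect2 and Rhbg), 3 were lower (Oat, Cyp2e1 and Cyp1a2) and Rnf43 did not pass the test (limma on log2(RPKM + 0.1), adjusted p under 0.01). Of all 13941 genes tested, 24.5% were higher and 7.71% lower. With a fold change above 2 in addition, 5 members were higher and 3 lower, against 8.28% and 3.47% of all genes. The libraries of the groups did not overlap for 9 of the 10 members, and for 46.6% of all genes. The median log2 fold change was 0.98 over the members and 0.23 over all genes tested. When libraries were scaled to equal medians of gene ratios, which removes most of this shift, 4 members remained higher and 3 lower, of which 2 and 3 changed by more than 2-fold, and no called member changed direction. Under that scaling 1716 of all genes were higher and 1941 lower, instead of 3413 and 1075. The calls over all genes thus split into 46.9% higher and 53.1% lower, instead of 76% and 24%. These all-gene counts are also the background for the counts of lists under the scaling with T3. Without hypothyroid WT replicate 1, 3 members were higher by more than 2-fold.

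**Figure D1:**
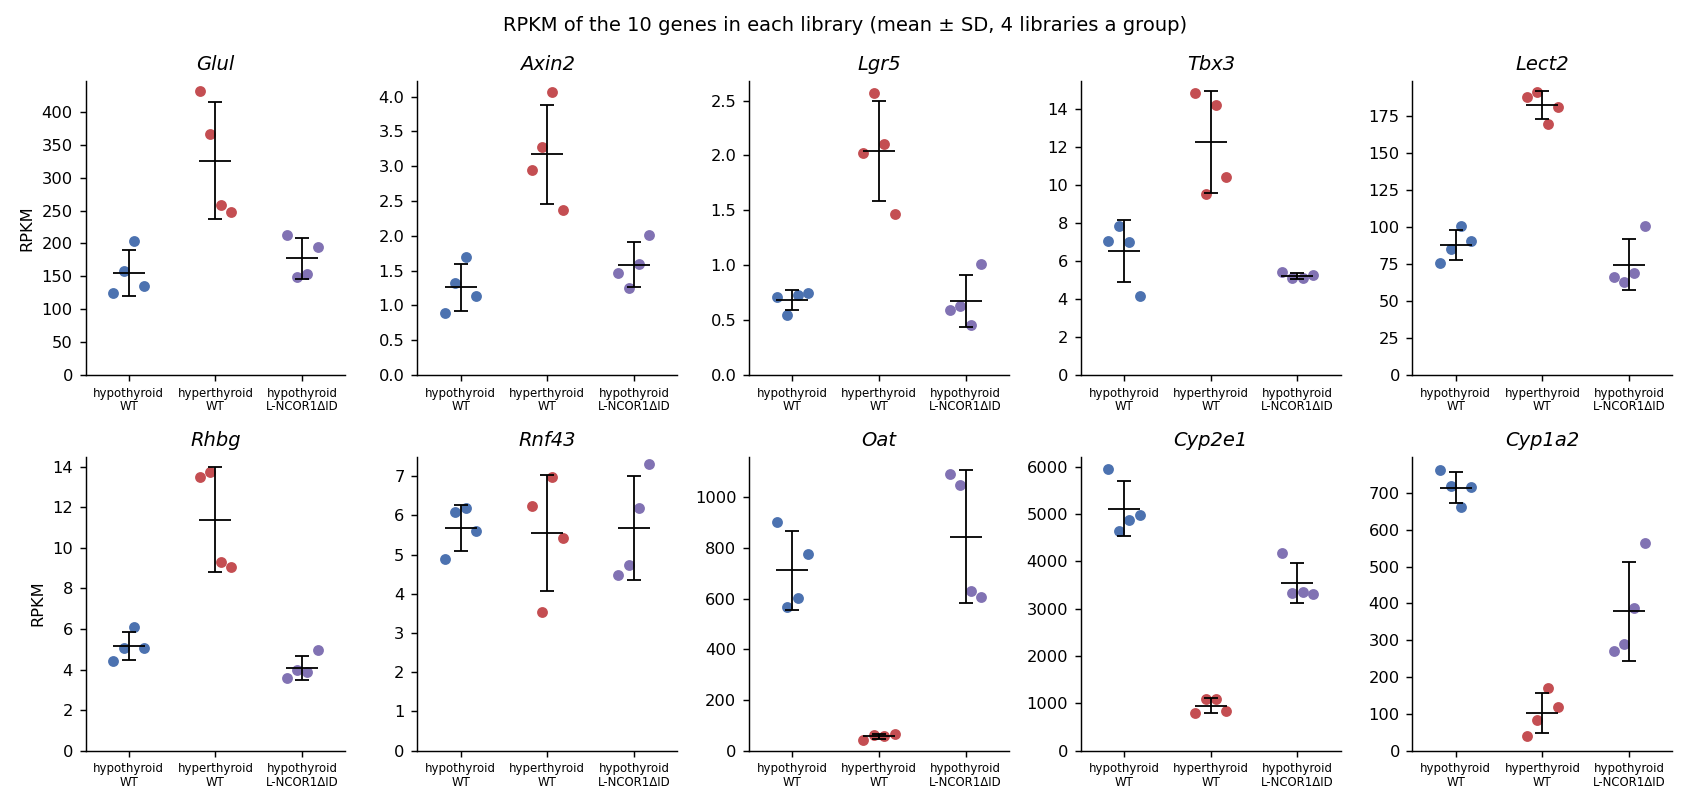
RPKM of the 10 genes (y axis, starting at 0) in each of the 12 libraries by group, with the mean and SD of 4 libraries in black. Glul, Axin2, Lgr5, Tbx3, Lect2 and Rhbg sit higher in all hyperthyroid WT libraries than in any hypothyroid WT library, Oat, Cyp2e1 and Cyp1a2 sit lower, and Rnf43 overlaps between all groups.

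The members that report Wnt signalling most directly are considered first. Axin2 encodes a scaffold of the β-catenin destruction complex and is a widely used readout of the pathway. It had 0.893, 1.32, 1.69 and 1.13 RPKM in the hypothyroid WT libraries and 2.95, 3.28, 4.07 and 2.38 in the hyperthyroid ones. Every hyperthyroid library lay above every hypothyroid one, and the log2 fold change was 1.27 (SE 0.21, adjusted p = 0.0012 by limma). The mutant had 1.47, 1.25, 1.595 and 2.02 RPKM, with only replicate 4 above the hypothyroid WT range.

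Lgr5 encodes a receptor for R-spondins and, in the liver, is known from hepatocytes around the central vein. Its level was low, with 0.706, 0.547, 0.729 and 0.744 RPKM in hypothyroid WT and 2.02, 2.57, 2.1 and 1.47 in hyperthyroid WT livers. This was the largest rise among the members (log2 fold change 1.44, SE 0.18, adjusted p = 2.7e-04). The mutant libraries had 0.589, 0.63, 0.458 and 1.01 RPKM, around the hypothyroid WT values, with replicate 4 the highest.

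Rnf43 encodes a ubiquitin ligase that removes Wnt receptors from the cell surface and, like Axin2, is a negative feedback target. It had 4.89, 6.08, 6.18 and 5.6 RPKM in hypothyroid WT and 6.25, 3.54, 6.97 and 5.41 in hyperthyroid WT livers. The groups overlapped and the log2 fold change was -0.07 (95% CI -0.51 to 0.36, adjusted p = 0.77). Hyperthyroid WT replicate 2 was the lowest of all 12 libraries, and without it the value was 0.12. The mutant libraries, with 4.49, 4.74, 6.17 and 7.3 RPKM, spanned the same range.

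Tbx3 encodes a T-box repressor that Wnt signalling activates in the liver. It had 7.07, 7.82, 7.01 and 4.16 RPKM in hypothyroid WT and 14.8, 9.5, 14.2 and 10.4 in hyperthyroid WT livers. Hypothyroid WT replicate 4 was low and hyperthyroid WT replicates 1 and 3 were high, yet the groups did not overlap (log2 fold change 0.91, SE 0.22, adjusted p = 0.0072). The call is marginal. It was lost without hypothyroid WT replicate 1, 3 or 4 or hyperthyroid WT replicate 1, 3 or 4, with adjusted p from 0.0103 to 0.022, and under the scaling to equal medians (0.68, adjusted p = 0.029). In the mutant Tbx3 was tightly grouped at 5.38, 5.09, 5.08 and 5.27 RPKM, within the range of hypothyroid WT livers.

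Lect2 encodes a secreted protein of hepatocytes and is a β-catenin target in the liver. It had 75.8, 84.9, 100.4 and 90.3 RPKM in hypothyroid WT and 188, 191, 169.5 and 181 in hyperthyroid WT livers. The groups were far apart relative to their spread, and the log2 fold change of 1.06 (SE 0.09, adjusted p = 4.3e-05) had the smallest SE of the members. Mutant replicates 1 to 3 had 66.2, 62.5 and 68.8 RPKM, below every hypothyroid WT library, but replicate 4 had 100.3.

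Glul encodes glutamine synthetase, which turns ammonia that escapes the urea cycle into glutamine. It had 125, 158, 203 and 135 RPKM in hypothyroid WT and 431, 367, 258 and 248 in hyperthyroid WT livers. All hyperthyroid libraries were higher, replicates 1 and 2 most, and the log2 fold change was 1.06 (SE 0.21, adjusted p = 0.0031). This call was lost without hypothyroid WT replicate 1 (adjusted p = 0.0101) or replicate 4 (adjusted p = 0.011), and under the scaling to equal medians (0.82, adjusted p = 0.018). The mutant had 213, 149, 153 and 195 RPKM, overlapping hypothyroid WT.

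Rhbg encodes an ammonium transporter of the hepatocytes that express glutamine synthetase. Hypothyroid WT livers had 4.43, 5.07, 6.1 and 5.06 RPKM and hyperthyroid WT livers 13.5, 13.7, 9.31 and 9.04. The groups did not overlap, and as for Glul replicates 1 and 2 were the highest (log2 fold change 1.11, SE 0.16, adjusted p = 6.6e-04). The mutant had 3.57, 3.95, 3.895 and 4.95 RPKM.

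Oat encodes ornithine aminotransferase, which converts ornithine towards glutamate and shares its innermost pericentral position with Glul. It moved opposite to Glul. Hypothyroid WT livers had 904, 569, 601 and 775 RPKM and hyperthyroid WT livers 42.3, 61.9, 57.6 and 64.9, so that the mean with T3 was 7.96% of the hypothyroid one. The log2 fold change of -3.64 (SE 0.18, adjusted p = 3.8e-06) was the largest of the 10. In the mutant the libraries formed 2 levels, 1094 and 1049.6 RPKM in replicates 1 and 2 and 629 and 608 in replicates 3 and 4, the first pair above and the second pair within the hypothyroid WT range.

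Cyp2e1, a cytochrome P450 that oxidises ethanol and paracetamol, was the most abundant member. Hypothyroid WT libraries had 5949.9, 4641, 4873 and 4976 RPKM and hyperthyroid WT libraries 795, 1082, 1082 and 833. With T3 the mean was 18.6% of the hypothyroid one (log2 fold change -2.44, SE 0.16, adjusted p = 1.1e-05). The mutant had 4168 RPKM in replicate 1 and 3329, 3346 and 3313 in the others, all below hypothyroid WT and all above hyperthyroid WT.

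Cyp1a2, a cytochrome P450 that metabolises caffeine and is induced through the aryl hydrocarbon receptor, had 763, 718, 662 and 717 RPKM in hypothyroid WT livers. With T3 it had 39.5, 82.6, 169 and 119, which is a wide spread (SD 55.1 around a mean of 103) but far from the hypothyroid values (log2 fold change -2.99, SE 0.37, adjusted p = 2.6e-04). The mutant had 272, 289.8, 388 and 564 RPKM, between the WT groups in all 4 libraries.

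Ratios within a library do not depend on the scaling between libraries and show the unequal response directly. The pairs join members whose T3 calls differ, so their separation with T3 restates those calls. The ratio of Glul to Oat was 0.232 ± 0.092 in hypothyroid WT, 6.11 ± 2.86 in hyperthyroid WT and 0.225 ± 0.0756 in mutant livers (mean ± SD, n = 4 each). Its lowest value with T3, 3.82, exceeded the highest hypothyroid WT value, 0.338. The ratio of Glul to Cyp2e1 was 0.0309 ± 0.0089, 0.355 ± 0.132 and 0.0501 ± 0.0064 in the same order. Its mutant values (0.0449 to 0.0588) lay above those of hypothyroid WT (0.021 to 0.0417). Neither Glul nor Cyp2e1 alone passed the limma test in the mutant (adjusted p = 0.55 and 0.12). How often other pairs of genes separate these groups was not tested. Among the feedback genes, Axin2 to Rnf43 was 0.219 ± 0.0392, 0.606 ± 0.224 and 0.281 ± 0.032. Lgr5 to Rnf43 was 0.121 ± 0.0235, 0.406 ± 0.215 and 0.119 ± 0.0301, with the highest value, 0.727, in hyperthyroid WT replicate 2, where Rnf43 was low.

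**Figure D2:**
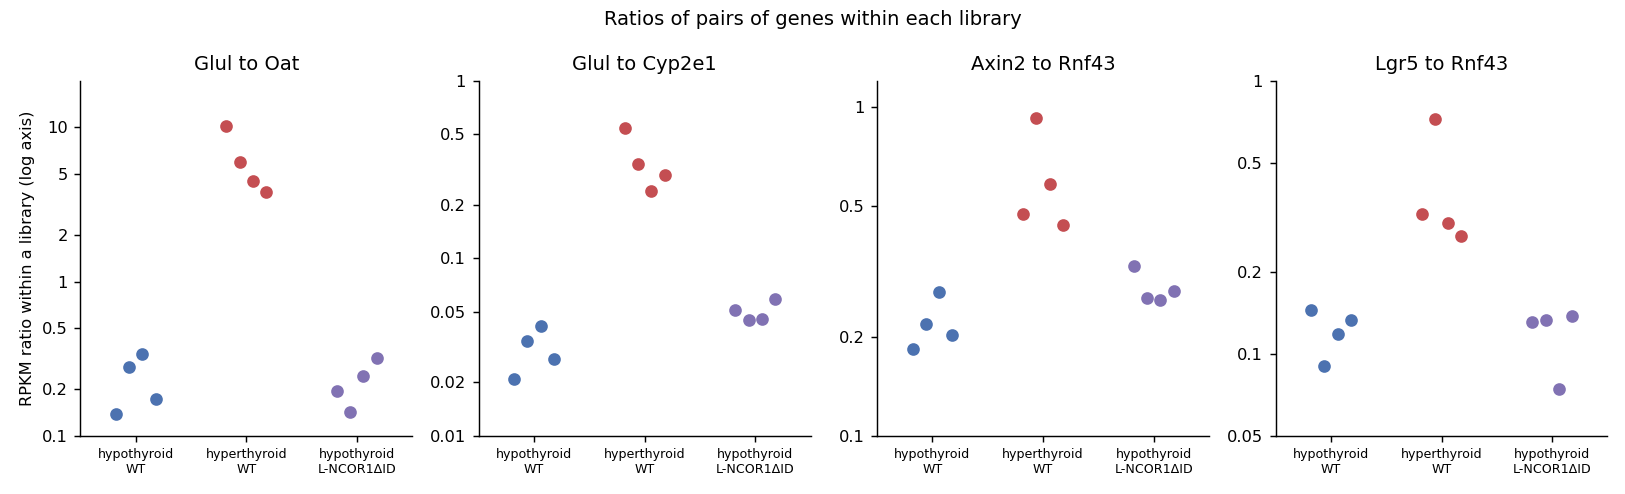
Ratio of RPKM for 4 pairs of genes (y axis, log scale) in each of the 12 libraries by group. Glul to Oat lies between 3.82 and 10.2 in hyperthyroid WT livers and between 0.138 and 0.338 in hypothyroid WT livers, and all 4 ratios separate hyperthyroid WT from both other groups.

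The second comparison asked whether loss of the interaction between NCOR1 and TR, without T3, moves the same genes. None of the 10 genes passed the test (limma, 0 higher and 0 lower at adjusted p under 0.01), and 3 had an unadjusted p under 0.05. Of all 13790 genes tested 0.725% were higher and 0.544% lower, and 20.5% had an unadjusted p under 0.05. The libraries did not overlap for 2 members, Cyp1a2 and Cyp2e1, and for 13.1% of all genes. The median log2 fold change was -0.16 over the members and 0.03 over all genes.

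Cyp1a2 had the largest difference, with a mean of 52.9% of hypothyroid WT (log2 fold change -0.98, 95% CI -1.46 to -0.50, adjusted p = 0.037). Without mutant replicate 4, the highest of its group, the value was -1.19 (adjusted p = 0.0035). Cyp2e1 followed at 69.3% of hypothyroid WT (-0.53, 95% CI -0.91 to -0.15, adjusted p = 0.12), and Rhbg at 79.2% (-0.33, 95% CI -0.62 to -0.04, adjusted p = 0.19). For Oat, the member most sensitive to T3, the value was 0.22 (95% CI -0.32 to 0.76), and for Lgr5 -0.06 (95% CI -0.55 to 0.43). Glul (0.20, 95% CI -0.19 to 0.59), Axin2 (0.32, 95% CI -0.14 to 0.79), Lect2 (-0.26, 95% CI -0.60 to 0.09) and Tbx3 (-0.28, 95% CI -0.68 to 0.12) had intervals that include 0. The interval of Rnf43 was -0.38 to 0.34. These intervals leave room for modest differences in either direction.

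Mutant replicate 4 had the highest level of its group for Axin2, Lgr5, Rnf43, Lect2, Cyp1a2 and Rhbg, and the lowest for Oat and Cyp2e1. The coefficient of variation in the mutant ranged from 2.85% for Tbx3 to 35.4% for Cyp1a2.

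The third comparison set hyperthyroid WT directly against hypothyroid L-NCOR1ΔID livers, which is the difference between the T3 effect and the mutant effect. Here 5 members were higher with T3 (Axin2, Lgr5, Tbx3, Lect2 and Rhbg) and 3 lower (Oat, Cyp2e1 and Cyp1a2), against 15.5% and 5.7% of all 14017 genes tested. The libraries did not overlap for 9 of 10 members and for 38.3% of all genes. The log2 differences were 1.49 for Lgr5 (SE 0.24, adjusted p = 0.0016), 1.44 for Rhbg (SE 0.17, adjusted p = 3.5e-04), 1.32 for Lect2 (SE 0.15, adjusted p = 2.5e-04) and 1.19 for Tbx3 (SE 0.15, adjusted p = 4.3e-04). Oat differed by -3.86 (SE 0.23, adjusted p = 1.2e-05), and Cyp2e1 by -1.91 (SE 0.19, adjusted p = 1.5e-04). Glul, at 0.85 (SE 0.20, adjusted p = 0.0104), was just outside the threshold, and inside it without hyperthyroid WT replicate 4 (adjusted p = 0.0098).

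Both remaining calls were sensitive to single libraries. Axin2 (0.95, SE 0.19, adjusted p = 0.005) was not called without hyperthyroid WT replicate 1, 2 or 3 or mutant replicate 1, 2 or 3, with adjusted p from 0.012 to 0.015, nor under the scaling to equal medians (0.76, adjusted p = 0.015). Cyp1a2 (-2.01, SE 0.42, adjusted p = 0.0058) was not called without hyperthyroid WT replicate 2 or 4 or any single mutant library, with adjusted p from 0.0102 to 0.018. Rnf43 did not differ detectably (-0.05, 95% CI -0.56 to 0.46). Over all genes the calls split into 73.1% higher and 26.9% lower as deposited, and into 44.8% and 55.2% under the scaling.

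**Figure D3:**
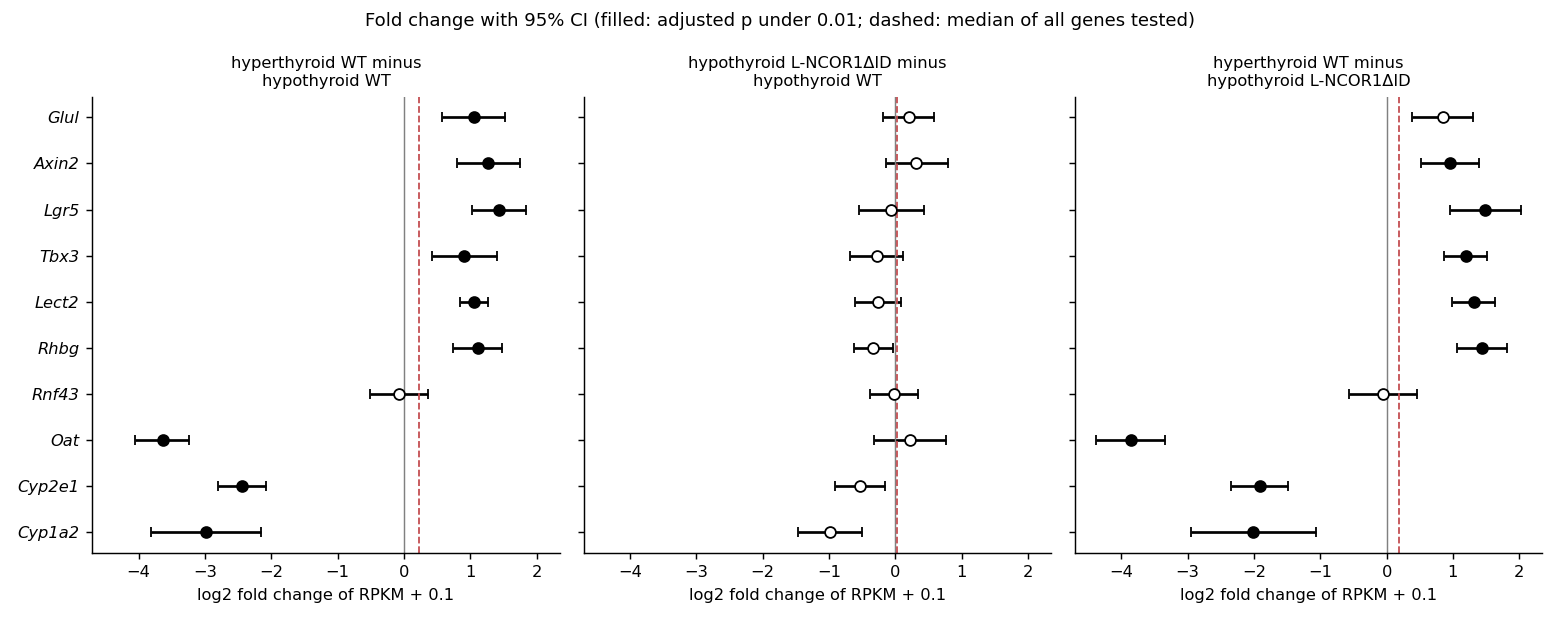
Log2 fold change of RPKM + 0.1 (x axis) with its 95% CI for each gene in the 3 comparisons, filled where adjusted p is under 0.01, with the median of all genes tested dashed. The T3 values run from -3.64 (Oat) to 1.44 (Lgr5), whereas the mutant values stay between -0.98 and 0.32.

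Other genes of the pathway were taken from lists named by role. Of 25 Wnt pathway components (receptors, destruction complex, dishevelled proteins, β-catenin and TCF factors), 24 were tested for T3, and 10 were higher, 1 was lower and 13 did not pass. As a share of all genes tested, 24.5% were higher and 7.71% lower. The list median was 0.35 on the log2 scale, against 0.23 for all genes, and under the scaling to equal medians 3 were higher and 2 lower. Lrp5, a Wnt co-receptor, had 8.71 ± 0.735 RPKM in hypothyroid and 25.4 ± 2.59 in hyperthyroid WT livers (log2 fold change 1.53, adjusted p = 9.1e-06). Ctnnb1, which encodes β-catenin, went from 68.2 ± 4.89 to 114 ± 4.44 RPKM (mean ± SD, n = 4; log2 fold change 0.74, adjusted p = 6.5e-05). The receptor gene Fzd1 (0.75, adjusted p = 0.0022) and the R-spondin receptor gene Lgr4 (0.72, adjusted p = 0.0021) were also higher, and neither was called under the scaling (adjusted p = 0.011 and 0.023). The destruction complex genes Axin1 (0.59), Apc (0.50), Gsk3a (0.33) and Gsk3b (0.59) were higher too, as was the dishevelled gene Dvl1 (0.57). None of them was called under the scaling. Csnk1a1 (0.34, adjusted p = 0.0103), Btrc (-0.16, adjusted p = 0.46) and the dishevelled gene Dvl3 (0.36, adjusted p = 0.029) did not pass. The receptor gene Fzd6, below 1 RPKM in every group mean, was higher (1.30, adjusted p = 9.0e-04, and 0.0023 under the scaling). The lower gene was Dvl2 (-0.51, adjusted p = 0.007), which relays the signal from the receptors.

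Among 21 Wnt ligands and secreted regulators, 14 were tested and 3 were higher with T3 and 0 lower by limma. Over all 13941 genes tested, 24.5% were higher and 7.71% lower, so the count of higher genes was near that share. The median of the list was 0.66, against 0.23 for all genes, and under the scaling 2 were higher. Rspo3, an R-spondin made by central vein endothelium, had 1.47 ± 0.223 RPKM in hypothyroid and 2.43 ± 0.338 in hyperthyroid WT livers (0.69, adjusted p = 0.0044, and 0.021 under the scaling). Wnt5a (1.53, adjusted p = 6.0e-04) and Wnt4 (1.27, adjusted p = 9.2e-04) were below 1 RPKM in every group mean. Wnt2 and Wnt9b, the ligands best known from the central vein, did not pass (0.41, adjusted p = 0.26, and 0.55, adjusted p = 0.19).

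Of 16 other Wnt targets 12 were tested, and they split in both directions, with 3 higher, 4 lower and 5 that did not pass (median 0.07). Among all genes tested 24.5% were higher and 7.71% lower. Under the scaling 3 of these Wnt targets were higher and 5 lower. Ccnd1, which encodes cyclin D1, had 2.67 ± 0.602 RPKM in hypothyroid and 17.2 ± 5.29 in hyperthyroid WT livers (2.62, adjusted p = 3.6e-05). Tcf7 (1.18, adjusted p = 3.6e-04) and the feedback inhibitor gene Nkd1 (1.15, adjusted p = 4.3e-04) were higher as well. The lower ones were Tnfrsf19, from 1.51 ± 0.21 to 0.16 ± 0.0532 RPKM (-2.65, adjusted p = 1.8e-05), the glutamate transporter gene Slc1a2 (-1.34, adjusted p = 2.1e-05), Cldn2 (-0.66, adjusted p = 4.0e-04) and Sox9 (-0.73, adjusted p = 0.0071).

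The other pericentral genes were mostly lower. Of 20 tested, 11 were lower with T3, 5 higher and 4 did not pass, with a median of -0.70, and under the scaling 11 were lower and 1 higher. Cyp2c54 (-3.23, adjusted p = 2.7e-06) and Cyp2c29 (-2.84, adjusted p = 9.1e-06) encode cytochrome P450 enzymes, and Cyp2c29 went from 1510 ± 93.1 to 217 ± 57.1 RPKM. Lhpp, a phosphatase gene, was lower as well (-2.47, adjusted p = 7.5e-06), and the dicarboxylate transporter gene Slc13a3 was higher (2.18, adjusted p = 8.6e-04). Avpr1a, Slc16a10 and Gulo were higher as well, and none of these was called under the scaling. Of the 20 periportal genes, 5 were lower, 3 higher and 12 did not pass (median -0.44), and under the scaling 6 were lower and 3 higher. Hsd17b13 (-1.55, adjusted p = 5.3e-05), Fbp1 (-1.35, adjusted p = 8.2e-05), Aldh1b1, Asl and Hal were lower, while Cdh1 (2.83, adjusted p = 0.0029), Ctsc (2.69, adjusted p = 1.2e-05) and Apof (1.53, adjusted p = 1.4e-04) were higher. Genes listed as pericentral and as periportal thus each held calls in both directions, as did all genes tested (24.5% higher and 7.71% lower). Whether the lists differ from each other was not tested.

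**Figure D4:**
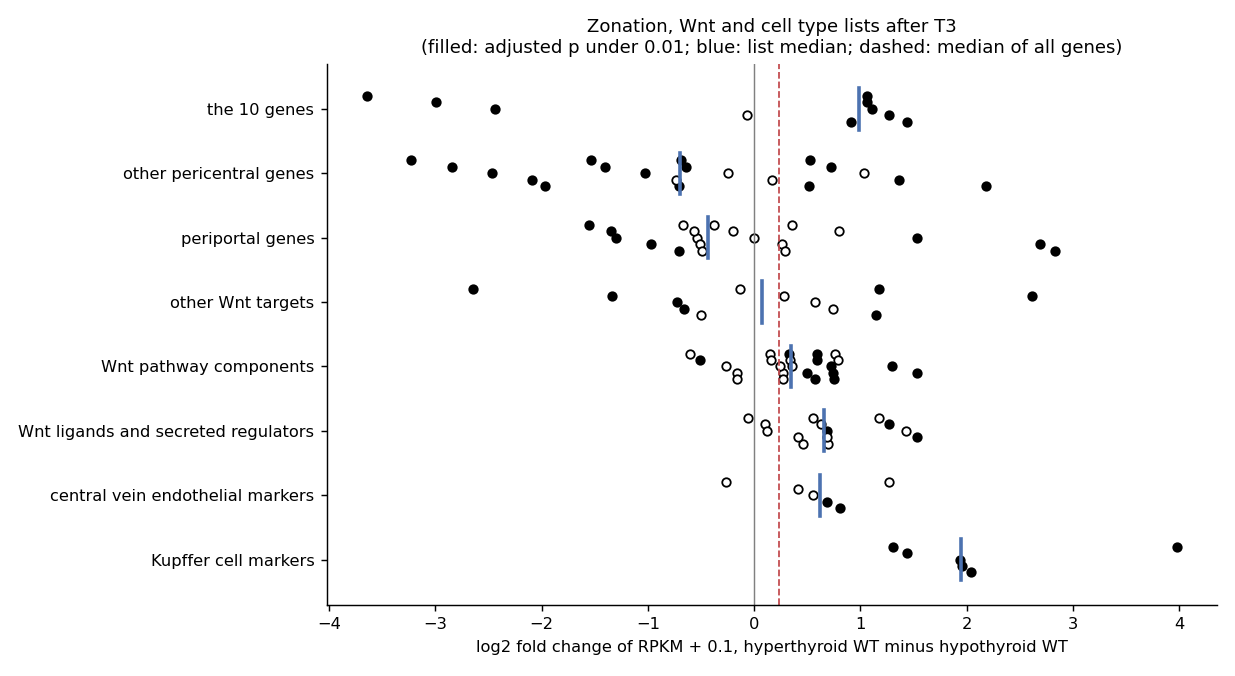
Log2 fold change of RPKM + 0.1 with T3 in WT livers (x axis) for each tested gene of 8 lists (rows), filled where adjusted p is under 0.01, with list medians in blue and the median of all genes dashed. The 10 genes split into a group between 0.91 and 1.44, 1 gene near 0 and 3 genes between -3.64 and -2.44, and all 6 Kupffer cell markers lie above the median of all genes.

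In L-NCOR1ΔID livers the zonation and Wnt lists held 2 calls, both among other pericentral genes. Other pericentral genes had 1 higher and 1 lower of 20, with 7 at an unadjusted p under 0.05. The higher one was Gstm3, a glutathione transferase gene (1.81, adjusted p = 2.7e-04), which was lower with T3 (-1.54, adjusted p = 0.0026), and the lower one Nr1i3, which encodes the receptor CAR (-1.07, adjusted p = 0.0014). By limma, 0 of 12 other Wnt targets, 0 of 24 pathway components, 0 of 13 ligands and secreted regulators and 0 of 20 periportal genes were called, with 3, 2, 1 and 3 at an unadjusted p under 0.05. Of all 13790 genes tested, 0.725% were higher, 0.544% were lower and 20.5% had an unadjusted p under 0.05.

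Markers of other liver cells moved with T3 too, where 24.5% of all genes tested were higher and 7.71% lower. All 6 Kupffer cell markers were higher by more than 2-fold, from 1.31 for Vsig4 to 3.98 for Marco on the log2 scale (1.07 and 3.76 under the scaling), and their summed RPKM was 42.2 to 59.9 in hypothyroid WT, 132 to 218 in hyperthyroid WT and 47.3 to 129 in mutant livers. Of 6 liver endothelial markers Pecam1, Lyve1 and Cdh5 were higher (summed 40.7 to 60 against 60.6 to 72.9 RPKM), and of 6 central vein endothelial markers Kit and Rspo3 were higher (4.07 to 6.28 against 6.49 to 11.5). Of 5 hepatocyte markers, Alb and Ttr were lower and Hnf4a higher, and the sum fell from 36100 to 47500 down to 18200 to 26300 RPKM. Most of this sum was Alb, with means of 31800 RPKM in hypothyroid and 14300 in hyperthyroid WT livers. Apoa1 (means 4220 and 4660) and Serpina1a (380 and 490) did not pass. Of 6 stellate cell markers Lrat, Dcn and Pdgfrb were higher (44.5 to 62.5 against 73.8 to 83.6). Under the scaling only Lyve1 of these endothelial, central vein and stellate markers was called, and neither Hnf4a nor Alb was. The sums of cholangiocyte (12 to 16.1 against 10.4 to 19.2), lymphocyte (1.27 to 3.7 against 1.99 to 4.71) and red blood cell markers (140 to 204 against 147 to 214) overlapped between the WT groups. Among single genes, Krt7, Hbb-b1 and Hba-a1 were higher, none of them under the scaling, and Sox9 and Alas2 were lower. No marker was listed at 0 in all libraries of a group. The part of these shifts in the members' values was not tested.

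The cell type markers were also compared between L-NCOR1ΔID and hypothyroid WT livers. The only one of these markers that passed the test was Alas2, the heme synthesis gene of red blood cell precursors, which was lower (-1.10, adjusted p = 0.0042 by limma). Of the 6 stellate cell markers 4 had an unadjusted p under 0.05, all with higher means in the mutant, and 0 were called. Col1a1, a collagen gene, had a log2 fold change of 2.01 (adjusted p = 0.071) and Pdgfrb 0.75 (adjusted p = 0.025), and the mutant libraries lay above all hypothyroid WT libraries for both. The summed stellate markers had 58.3 to 92.3 RPKM in the mutant and 44.5 to 62.5 in hypothyroid WT livers. Lyve1, an endothelial marker, had 1.80 (adjusted p = 0.042), and Cd3e, a T cell marker, -2.02 (adjusted p = 0.027), again with no overlap between the groups. Unadjusted p was under 0.05 for 1 of 5 hepatocyte, 1 of 6 liver endothelial, 2 of 6 central vein endothelial, 2 of 6 Kupffer cell, 0 of 5 cholangiocyte, 1 of 5 lymphocyte and 1 of 3 red blood cell markers. The same held for 20.5% of all 13790 genes tested, and 13.1% of them had groups that did not overlap. The part of these differences in the members' mutant values was not tested.

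The genes whose profile over the 12 libraries was most like that of a member were looked for among 10623 genes, by the root mean square difference of centred log2 values. The values are a description, since most of them share the T3 contrast. Glul was nearest to the glycine transporter gene Slc6a9 (0.17) and to Abhd5 (0.18), a lipase coactivator gene, Axin2 to Akirin1 (0.15) and Diaph2 (0.17), and Lgr5 to Megf9 (0.19) and Cep85l (0.22). Tbx3 was nearest to Trmt61a (0.16) and Rrp12 (0.17), Lect2 to Cwf19l1 (0.12) and Slc17a3 (0.14), and Rhbg to the fibronectin gene Fn1 (0.14) and to Smyd1 (0.16). For the lower members the distances were 0.20 for Ces1e and Slc16a7 with Cyp2e1, 0.33 for Cyp2c67 and 0.40 for Alas2 with Cyp1a2, and 0.35 for Marcksl1-ps4 and 0.42 for Rdh16 with Oat. Rdh16, a retinol dehydrogenase gene, had 28.6 ± 6.54, 3.42 ± 0.941 and 30.6 ± 13 RPKM in hypothyroid WT, hyperthyroid WT and mutant livers, the same order of levels as Oat.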

How the data were processed

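Liver RNA-seq from 12 mice in 3 groups of 4 was analysed, with the list of merged H3 acetylated regions. The other ChIP-seq samples were not analysed here. The authors aligned reads to mm9 with STAR and quantified RefSeq transcripts with HOMER, and deposited RPKM. These are not counts, so DESeq2, which the authors used, was not run. Of 31370 transcripts, 1 had no gene name and was dropped, a share of up to 0.00079% of a library's RPKM. For the 4272 of 23813 genes with more than 1 transcript, the first was used. The 4 libraries of a group are biological replicates per the study's methods. Depth was estimated from the steps between low RPKM values and GENCODE transcript lengths.

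Fold changes are on the log2(RPKM + 0.1) scale, which understates changes of low genes. The genes that reached 0.1 RPKM in 4 or more libraries of a comparison were tested with limma 3.58.1 (R 4.3.3, variance trend, Benjamini-Hochberg over all genes tested), with only the 2 groups compared in each fit, and called at adjusted p under 0.01. All 10 members passed the filter in all 3 comparisons. Both T3 and mutant comparisons share the hypothyroid WT libraries. The procedure was tested on simulated data. Tables and figures used Python 3.11.15, pandas 2.3.3 and matplotlib 3.10.9. Start sites were the most upstream among transcripts in the consensus coding set. The alternatives were a pseudocount of 1 or 0.01, no filter or a stricter one (mean RPKM of 1), a joint fit of the 12 libraries, a replicate block, a fit without the trend, scaling to equal medians of gene ratios, the transcript with the highest mean, adjusted p under 0.05, each library left out, and regions within 50 kb.

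The members and lists were chosen with earlier results of these data known. Beside the members and Ncor1, up to 4 genes per list with the largest called change and at least 1 RPKM in the higher group, genes needed to state counts of 5 or fewer, and the 2 nearest profiles of each called member were named. Wnt2, Wnt9b, Axin1, Apc, Gsk3a, Gsk3b, Dvl1, Csnk1a1, Btrc, Dvl3 and Fzd6 were added after their values were seen. So were Col1a1, Pdgfrb, Lyve1 and Cd3e in the mutant. A further gene of the pericentral list is counted but not reported here by name.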

Additional observations from a re-analysis of the deposited data

Results flagged for a closer look

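Of 30 groups of 4 libraries examined (10 genes in 3 groups), 2 had a library far from the others by Dixon's criterion, which flags about 1 in 20 groups by chance. Lect2 was 100.3 RPKM in mutant replicate 4, against 62.51 to 68.83 in the other mutant libraries. Cyp2e1 was 4168 RPKM in mutant replicate 1, against 3313 to 3346 in the others.

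For 8 members the T3 effect and the L-NCOR1ΔID effect, both taken against hypothyroid WT, differed by the test of hyperthyroid WT against hypothyroid mutant livers. In that test 15.5% of all 14017 genes were higher and 5.7% lower. The calls of Axin2 and Cyp1a2 were sensitive to single libraries, and that of Axin2 was lost under the scaling to equal medians. The differences on the log2 scale were -3.86 for Oat (T3 -3.64, mutant 0.22), -1.91 for Cyp2e1 (T3 -2.44, mutant -0.53), -2.01 for Cyp1a2 (T3 -2.99, mutant -0.98), 0.95 for Axin2 (T3 1.27, mutant 0.32), 1.49 for Lgr5 (T3 1.44, mutant -0.06), 1.19 for Tbx3 (T3 0.91, mutant -0.28), 1.32 for Lect2 (T3 1.06, mutant -0.26) and 1.44 for Rhbg (T3 1.11, mutant -0.33).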

How the results depend on the processing

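The number of members higher by more than 2-fold with T3 was 2 with a pseudocount of 1 and 2 under scaling to equal medians of gene ratios, instead of 5, and ranged from 3 to 6 with each library left out. The number of members lower in the mutant was 1 at adjusted p under 0.05, and 0 to 1 with each library left out. The median number of acetylated regions near a start site was 4 within 50 kb, instead of 8 within 100 kb. Every other count of members called was within 1.5 times the main one under the alternatives tried, apart from the replicate block. Among all genes, scaling gave 1716 higher and 1941 lower with T3 (3413 and 1075 as deposited) and 1048 and 1293 in the third comparison (2176 and 799). In the mutant (100 higher and 75 lower), 118 were lower with all libraries in 1 fit, 63 higher without the variance trend, and from 36 higher and 28 lower upwards with a library left out. In the third comparison, leaving out hyperthyroid WT replicate 3 or 4 or mutant replicate 3 gave 1246, 1377 and 1182 higher, and the last gave 469 lower. At adjusted p under 0.05 the counts were 5244 and 1636 with T3, 344 and 257 in the mutant and 3995 and 1412 in the third comparison. Without 1 library, Rnf43 changed sign, to 0.12 with T3 (without hyperthyroid WT replicate 2, range -0.20 to 0.12), to 0.01, 0.02, 0.08 and 0.05 in the mutant (without hypothyroid WT replicate 2 or 3 or mutant replicate 1 or 2, range -0.15 to 0.08), and to 0.15 and 0.08 in the third comparison (without hyperthyroid WT replicate 2 or mutant replicate 4, range -0.17 to 0.15). Lgr5 did so in the mutant (0.08 without mutant replicate 3, range -0.25 to 0.08), and was not tested there under the stricter filter. With T3, Tbx3 was not called without a filter or without the variance trend (adjusted p = 0.012 in both). In the third comparison, Glul was called under the stricter filter (adjusted p = 0.0088) and with all libraries in 1 fit (adjusted p = 0.0052), and Cyp1a2 was not called without a filter (adjusted p = 0.0103). The causes were not tested.

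Libraries with the same replicate number are not said to share an animal or day, and their deviations from the group means correlated from -0.21 to 0.27 across genes, so the numbers were not taken as pairs. With the replicate number as a block, 3 members instead of 5 were higher in the third comparison (Axin2 adjusted p = 0.021, Lgr5 adjusted p = 0.011), and Glul was not called with T3 (adjusted p = 0.012). Over all genes the block gave 20 higher and 25 lower in the mutant and 1152 and 490 in the third comparison.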
